A study of Mus musculus with 2 samples.

Results

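The 33 genes described here encode the machinery that burns fatty acids in mitochondria and peroxisomes, makes or uses ketone bodies, activates fatty acids to their coenzyme A esters, and answers to the fatty acid receptors of the PPAR family. They were taken by symbol from the deposited gene table, where they filled 34 of 18067 lines. The extra line also carried the symbol Plin2, but its identifier belongs to Gm12551 in RefSeq, whose coordinates overlap those of Plin2 on chromosome 4. Lines whose 2 values averaged 1 TPM or more are called measured; 33 of the 34 were, and the line of Gm12551, at 0.49 TPM in the knockout and 0.81 TPM in the wild-type library, did not.

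Bulk RNA-seq had been performed on cells that GEO lists as small intestinal stem cells, from circBtnl1 knockout mice (1 library) and circBtnl1 wild-type mice (1 library). circBtnl1 is a circular RNA named after the butyrophilin-like gene Btnl1, and the study looked for transcription factors that differ between the genotypes. Strain, age, sex, treatment and the number of animals behind a library were not given in the sources used here, nor was the way the circular RNA was removed. There were no replicates, so each difference below is one between 2 libraries, with no test, and could not be set against the spread between mice.

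Fatty acids enter mitochondria as carnitine esters and are then shortened in a spiral of dehydrogenation, hydration, oxidation and thiolysis. The electrons leave through flavoproteins and NADH, and the acetyl units can be passed on as ketone bodies. In the small intestine this pathway is under the control of PPARs and HNF4 factors, and in mice it is known to serve the stem cells of the crypt.

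Values are TPM, a length-corrected share of all transcripts in a library, so that levels of different genes can be compared. The low values of the table correspond to about 17750000 reads in the knockout and 20250000 in the wild-type library. At these depths an approximate number of reads could be set behind each member, and the intervals given below cover counting error alone, since the reads may hold copies of the same molecule. The median measured gene was higher in the knockout library, with a log2 ratio of knockout over wild type of 0.39 (computed with 0.1 TPM added to both values). Btnl1 itself stood at 65.4 TPM in the knockout and 59.3 TPM in the wild-type library, a value that does not tell the circular RNA from the linear one and so does not check the genotype.

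The labelled cell type and part of the gut were only partly reflected in the markers. Lgr5, which defines crypt base stem cells, stood at 1.55 TPM in the knockout and 3.13 TPM in the wild-type library, and Olfm4, another stem cell gene, was listed at 0 in the knockout and at 0.2 TPM in the wild-type library. Of 9 stem cell markers 7 were measured, with a summed level of 148.7 TPM in the knockout and 138.4 TPM in the wild-type library over all 9. Genes that mark mature epithelium or colon had much higher levels. The 7 colonocyte markers summed to 17381 TPM in the knockout and 13076 TPM in the wild-type library. The largest part of this sum was Car1 in the knockout library, at 15252 TPM, with 6272 TPM in the wild-type library. Without it the other 6 summed to 2129 TPM in the knockout and 6804 TPM in the wild-type library. Of the 7 genes 4 were lower by 2-fold or more (57.1%, against 5.25% of all measured genes) and 2 higher (28.6%, against 23.1%). Hoxb13, one of those lower, stood at 118.6 TPM in the knockout and 429.0 TPM in the wild-type library. Goblet cell markers (7 genes) summed to 14196 TPM in the knockout and 22779 TPM in the wild-type library. Absorptive enterocyte markers (11 genes) summed to 2204 TPM in the knockout and 3317 TPM in the wild-type library. Of these 11 genes 7 were measured, while Sis, Lct, Apoa1 and Apoa4, markers of the small intestine, were not. Immune markers (9 genes) summed to 18.1 TPM in the knockout and 33.9 TPM in the wild-type library, and stromal and muscle markers (10 genes) to 125.7 TPM in the knockout and 40.6 TPM in the wild-type library. The 4 Y-linked genes summed to 22.8 TPM in the knockout and 1.42 TPM in the wild-type library, so the sex of the animals and the genotype cannot be told apart. The part of these cells in the results below was not tested, and in bulk RNA fewer cells of a type and less RNA per cell cannot be told apart.

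Fatty acid oxidation and ketogenesis genes were abundant in both libraries, and few of them differed by 2-fold or more. They summed to 3098 TPM (0.310% of all transcripts) in the knockout and 2854 TPM (0.285%) in the wild-type library, a ratio of 1.09. Of the 33 measured members 4 were higher by 2-fold or more in the knockout library (12.1%), where 23.1% of all 12666 measured genes were. None (0) was lower by that much, against 5.25% of all measured genes. The 4 were Acot2, Acsl4, Acadsb and Angptl4, and all 4 belonged to the 8 members with a mean of 1 to 20 TPM. That is 50% of these 8, against 33.8% of all 6341 genes of that level. None (0) of the 25 members with a mean of at least 20 TPM was 2-fold apart in either direction, against 12.4% of 6325 such genes that were higher and 5.11% that were lower.

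In the deposited scaling 26 of 33 members had a log2 ratio above 0 (78.8%), against 70.2% of all measured genes. The members' median log2 ratio was 0.31, close to the 0.39 of all measured genes. Relative to the median gene it was -0.09, with 13 members above and 20 below. On that relative scale 3 members were higher by 2-fold or more (Angptl4, Acot2 and Acsl4), against 13.5% of all measured genes, and 3 were lower (Acsl5, Slc25a20 and Acadl), against 10.2%. Ratios depended on abundance across the whole table. Among genes of 100 to 300 TPM the 11 members had a median of 0.24 and all genes one of -0.003, and at 50 to 100 TPM the 11 members had 0.42 and all genes 0.09. At 20 to 50 TPM the 3 members had 0.31 and all genes 0.33. Of the members with lower levels, the 5 at 5 to 20 TPM had 1.38 against 0.60 for all genes, and the 3 at 1 to 5 TPM had 0.31 against 0.74. The members' median thus lay above that of genes of like level in 3 of these ranges and below it in 2.

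**Figure D1:**
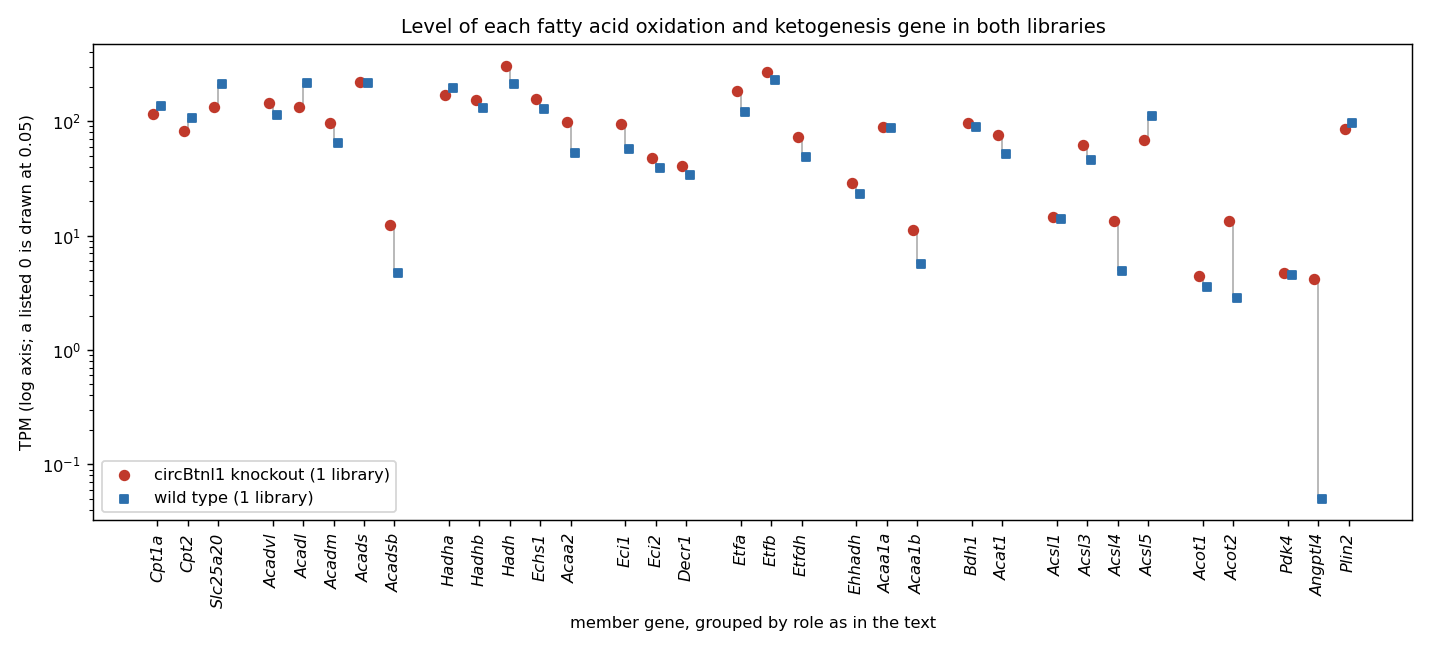
TPM (log axis) of the 33 measured members in the knockout library (red circles) and the wild-type library (blue squares), grouped by role, with 1 library per group and a listed 0 drawn at 0.05. Most pairs of points lie close together, and the wide gaps belong to Acadsb, Acsl4, Acot2 and Angptl4, the highest of which stood at 13.4 TPM.

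The carnitine shuttle was lower in the knockout library at each of its 3 members. Cpt1a, which makes acylcarnitines at the outer membrane and sets the rate of the pathway, stood at 115.1 TPM in the knockout and 134.6 TPM in the wild-type library. Slc25a20, the carrier that moves acylcarnitine through the inner membrane, stood at 131.7 TPM in the knockout and 212.5 TPM in the wild-type library, 1.61-fold lower. Cpt2, which returns the acyl group to coenzyme A inside, stood at 82.7 TPM in the knockout and 105.7 TPM in the wild-type library. Together they gave 329.6 TPM in the knockout and 452.9 TPM in the wild-type library, a ratio of 0.73, while the sum over all members was slightly higher in the knockout library. Their log2 ratios were -0.23 for Cpt1a, -0.69 for Slc25a20 and -0.35 for Cpt2, all within 2-fold in the deposited scaling, and relative to the median gene that of Slc25a20 was -1.08.

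A start region of Cpt1a is shown because this enzyme controls entry into the pathway. The hexamer AGGTCA, which nuclear receptors such as the PPARs recognise, was also sought at all members. In RefSeq the gene begins at 3322326, upstream of this window, so the start site used is not its first base. The window runs from 250 bases before to 50 bases after the start site at chr19:3323051-3323350 (plus strand, GRCm38.p6, RefSeq), and the capitals mark this hexamer read on the opposite strand, TGACCT, at position -94.
Cpt1a: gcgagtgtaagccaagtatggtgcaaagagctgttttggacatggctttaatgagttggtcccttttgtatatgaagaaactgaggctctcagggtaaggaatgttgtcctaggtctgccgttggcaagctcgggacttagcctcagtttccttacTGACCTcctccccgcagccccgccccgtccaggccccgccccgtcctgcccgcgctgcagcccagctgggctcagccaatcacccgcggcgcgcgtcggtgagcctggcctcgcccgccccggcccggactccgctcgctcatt
Such windows were found for 29 of the 33 members, 31 windows in all, and none for Angptl4, Acat1, Acaa2 and Decr1. The hexamer, on either strand, occurred in 5 of the 31 windows (16.1%), those of Acadm, Acadvl, Echs1, Cpt1a and Plin2, against 16.3% of the 32851 windows of all genes. The DR1 element of PPARs in its strict form, 2 such hexamers in the same direction with 1 base between them, occurred in no member window (0 of 31) and in 0.0396% of all windows. The cAMP response element TGACGTCA also occurred in no member window (0 of 31), against 1.79% of all. The 5 members with the hexamer had log2 ratios from -0.23 for Cpt1a to 0.57 for Acadm. Of the 4 members past 2-fold, Acot2, Acsl4 and Acadsb had a window and no match in it, and Angptl4 had no window.

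Acyl-CoA dehydrogenases, which carry out the first oxidation of each turn on chains of different length, differed in both directions. Acadl, for long chains, stood at 133.8 TPM in the knockout and 215.6 TPM in the wild-type library, 1.61-fold lower. Acadvl, for very long chains, stood at 144.5 TPM in the knockout and 113.9 TPM in the wild-type library. The order of these long-chain enzymes thus differed, with Acadl at 0.93 times the level of Acadvl in the knockout and 1.89 times in the wild-type library. Acadm, for medium chains, stood at 96.2 TPM in the knockout and 64.6 TPM in the wild-type library, and its ratio to Acadl was 0.72 in the knockout and 0.30 in the wild-type library. Acads, for short chains, was nearly equal, at 219.0 TPM in the knockout and 216.5 TPM in the wild-type library. Acadsb, on chromosome 7 (131410601 to 131446211), acts on short branched chains from isoleucine and was the least abundant of the 5. It stood at 12.3 TPM in the knockout and 4.67 TPM in the wild-type library, a ratio of 2.64 (approximate 95% counting interval 2.29 to 3.04, from about 664 and 276 reads). The higher and lower values nearly cancelled in the sum of the 5 dehydrogenases, which was 605.8 TPM in the knockout and 615.2 TPM in the wild-type library.

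The later steps of the spiral were higher in the knockout library at 4 of 5 genes, all within 2-fold. Hadh, the short-chain hydroxyacyl-CoA dehydrogenase, stood at 305.8 TPM in the knockout library, where it was the highest member (rank 498 among measured genes), and at 211.2 TPM in the wild-type library, where Etfb led. Echs1, the short-chain hydratase, stood at 156.2 TPM in the knockout and 127.5 TPM in the wild-type library. Acaa2, the mitochondrial thiolase, stood at 99.2 TPM in the knockout and 52.7 TPM in the wild-type library, a ratio of 1.88 (approximate 95% counting interval 1.72 to 2.06). This was the highest ratio among the members with a mean of at least 20 TPM. The 5 genes of this group summed to 883.5 TPM in the knockout and 717.7 TPM in the wild-type library, a ratio of 1.23. Under trimmed mean scaling this ratio became 0.94, and 3 of the 5 genes lay below the median gene.

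Hadha and Hadhb encode the 2 subunits of the trifunctional protein, which handles long chains at the inner membrane. Hadha stood at 169.8 TPM in the knockout and 196.8 TPM in the wild-type library. Hadhb stood at 152.5 TPM in the knockout and 129.5 TPM in the wild-type library. The subunits thus pointed in opposite directions by small amounts (log2 ratios of -0.21 and 0.24), and the ratio of Hadha to Hadhb was 1.11 in the knockout and 1.52 in the wild-type library. The genes lie head to head on chromosome 5 (Hadha 30119423 to 30154980, Hadhb 30155253 to 30184593), and their start windows overlap by 228 bases. The Hadhb window is printed for that reason, with capitals for the bases it shares with the window of Hadha (chr5:30155003-30155302, plus strand, GRCm38.p6, RefSeq).
Hadhb: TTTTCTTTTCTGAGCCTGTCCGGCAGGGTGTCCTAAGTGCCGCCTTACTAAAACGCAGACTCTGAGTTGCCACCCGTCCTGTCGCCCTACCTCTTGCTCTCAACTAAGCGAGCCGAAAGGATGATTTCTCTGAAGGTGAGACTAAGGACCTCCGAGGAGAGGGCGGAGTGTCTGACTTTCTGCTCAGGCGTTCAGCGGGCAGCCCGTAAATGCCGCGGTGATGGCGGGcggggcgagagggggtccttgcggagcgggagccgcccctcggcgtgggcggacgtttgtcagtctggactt
No match to any of the 4 motifs searched was in this window, nor in that of Hadha.

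Auxiliary enzymes and electron carriers were higher in the knockout library in each case, all within 2-fold. Eci1, an isomerase that moves double bonds of unsaturated chains, stood at 94.6 TPM in the knockout and 57.5 TPM in the wild-type library. Eci2, a second isomerase, stood at 47.8 TPM in the knockout and 38.6 TPM in the wild-type library, and the reductase gene Decr1 at 40.8 TPM in the knockout and 34.2 TPM in the wild-type library. The electron transfer flavoprotein takes up the electrons of the acyl-CoA dehydrogenases described above. Its subunit gene Etfa stood at 183.3 TPM in the knockout and 119.8 TPM in the wild-type library. Etfb, the partner subunit, stood at 269.9 TPM in the knockout and 227.1 TPM in the wild-type library. Etfdh, which passes the electrons to ubiquinone, stood at 72.0 TPM in the knockout and 48.4 TPM in the wild-type library. The 3 electron transfer genes together had a ratio of 1.33, which became 1.01 under trimmed mean scaling, so this difference was about that of the table as a whole.

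**Figure D2:**
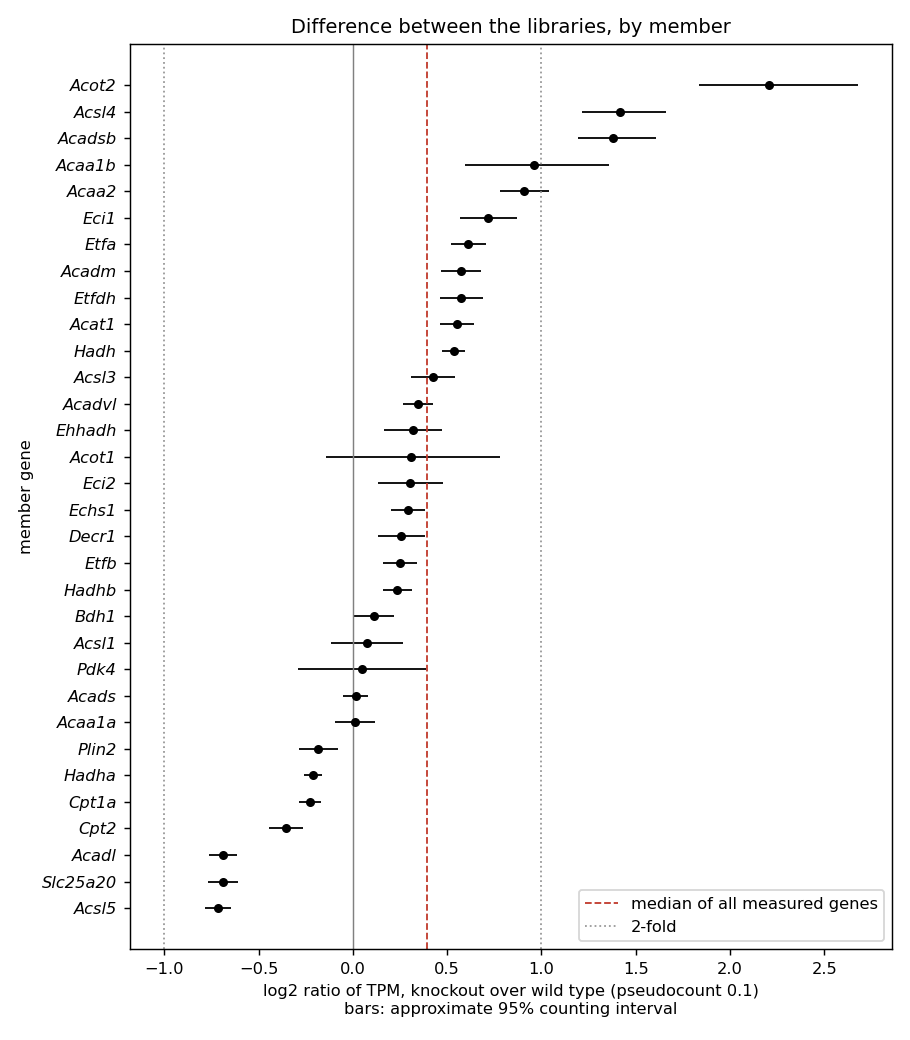
Log2 ratio of TPM, knockout over wild type, for the 32 measured members with a value above 0 in both libraries, ordered by size, with approximate 95% counting intervals as bars. The dashed line is the median of all measured genes (0.39) and the dotted lines are 2-fold; Acot2, Acsl4 and Acadsb lie beyond 2-fold on the high side and none on the low side.

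Among peroxisomal members, Ehhadh, a bifunctional hydratase and dehydrogenase, stood at 28.7 TPM in the knockout and 23.0 TPM in the wild-type library. The thiolase gene Acaa1a was nearly equal, at 88.4 TPM in the knockout and 87.7 TPM in the wild-type library. Its close relative Acaa1b stood at 11.1 TPM in the knockout and 5.67 TPM in the wild-type library, a ratio of 1.96 with an approximate counting interval of 1.51 to 2.57, which spans 2-fold. These thiolases are similar in sequence: 35.5% of the 50-base words of the Acaa1b transcript occurred unchanged in that of Acaa1a, so reads from shared stretches could be divided between them in more than one way.

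Ketone body enzymes differed little where they are members. Bdh1, which interconverts acetoacetate and beta-hydroxybutyrate, stood at 96.9 TPM in the knockout and 89.5 TPM in the wild-type library. Acat1, a thiolase that joins and splits acetoacetyl-CoA, stood at 76.3 TPM in the knockout and 52.1 TPM in the wild-type library. Oxct1, which uses ketone bodies, stood at 105.2 TPM in the knockout and 82.0 TPM in the wild-type library.

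Acyl-CoA synthetases of the long-chain family, which activate fatty acids before any further use, were split. Acsl5, an enzyme of the absorptive epithelium, stood at 67.8 TPM in the knockout and 111.4 TPM in the wild-type library (1.64-fold lower), the lowest ratio of all members. Acsl3, linked to lipid droplets, stood at 61.5 TPM in the knockout and 45.8 TPM in the wild-type library, so that Acsl5 led Acsl3 in both libraries. Acsl1 stood at 14.6 TPM in the knockout and 13.9 TPM in the wild-type library, a ratio of 1.05 with an approximate counting interval of 0.92 to 1.20. Acsl4, on chromosome X (142317993 to 142390802), prefers arachidonic acid and is known for its part in ferroptosis. It stood at 13.3 TPM in the knockout and 4.92 TPM in the wild-type library, a ratio of 2.70 with an approximate counting interval of 2.32 to 3.16. Of 7 measured markers of absorptive enterocytes 4 were lower by 2-fold or more in the knockout library (57.1%, against 5.25% of all measured genes). Among them was Krt20, at 919.4 TPM in the knockout and 2065 TPM in the wild-type library. Of the same list, Fabp2 was higher, at 756.95 TPM in the knockout and 135.2 TPM in the wild-type library, and Anpep stood at 15.5 TPM in the knockout and 7.9 TPM in the wild-type library. The part of these cells in the value of Acsl5 was not tested.

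Acyl-CoA thioesterases release free fatty acids again, Acot1 in the cytosol and Acot2 in mitochondria. Acot2 (chromosome 12, 83987861 to 83993877) stood at 13.4 TPM in the knockout and 2.83 TPM in the wild-type library, a ratio of 4.75 (approximate 95% counting interval 3.57 to 6.39, from about 258 and 60 reads). It had the highest ratio of the members with a value above 0 in both libraries, and 93.6% of measured genes had a lower one. Acot1, its neighbour on the same strand (84009502 to 84017670), stood at 4.39 TPM in the knockout and 3.52 TPM in the wild-type library, a ratio of 1.25 with an approximate counting interval of 0.91 to 1.72. Acot2 was therefore 3.06 times as abundant as Acot1 in the knockout and 0.80 times in the wild-type library. Transcripts of this pair share 24.5% of the 50-base words of Acot2, so the split of reads between them is uncertain.

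The start windows of these neighbours are shown because the genes are related in their transcripts but had different ratios (chr12:83987611-83987910 for Acot2 and chr12:84009252-84009551 for Acot1, both plus strand, GRCm38.p6, RefSeq). Capitals mark the 50 bases from the start site on.
Acot2: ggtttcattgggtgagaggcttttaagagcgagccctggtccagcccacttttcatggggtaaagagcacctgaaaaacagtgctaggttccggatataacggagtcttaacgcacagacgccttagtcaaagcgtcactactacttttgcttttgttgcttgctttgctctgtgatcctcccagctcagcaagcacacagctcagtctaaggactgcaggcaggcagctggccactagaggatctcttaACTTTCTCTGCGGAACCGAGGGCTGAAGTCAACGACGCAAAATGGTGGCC
Acot1: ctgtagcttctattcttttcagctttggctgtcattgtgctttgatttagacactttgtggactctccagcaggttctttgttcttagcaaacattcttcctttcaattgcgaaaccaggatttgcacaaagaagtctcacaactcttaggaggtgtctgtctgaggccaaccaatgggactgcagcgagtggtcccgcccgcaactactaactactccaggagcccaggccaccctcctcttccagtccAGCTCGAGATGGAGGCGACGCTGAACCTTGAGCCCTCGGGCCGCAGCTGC
Aligned over their 300 bases the windows were identical at 49.7% of positions, and their longest shared run was 9 bases. Neither held a match to the motifs searched.

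The PPAR targets among the members did not move as a group. Pdk4, the kinase that turns off pyruvate dehydrogenase in favour of fatty acid use, was low and nearly equal, at 4.69 TPM in the knockout and 4.53 TPM in the wild-type library. Plin2, the coat protein of lipid droplets, stood at 85.3 TPM in the knockout and 96.8 TPM in the wild-type library. Angptl4 (chromosome 17, 33774900 to 33781575), a secreted inhibitor of lipoprotein lipase, stood at 4.14 TPM in the knockout library and had a listed 0 in the wild-type library, about 120 reads against none (0). It counted as measured only through the knockout library, and its fold is not defined. These PPAR targets are also expressed in adipocytes. Of the adipocyte markers, Plin1 and Fabp4 were each at 0.44 TPM in the knockout library, and in the wild-type library Plin1 was at 0.06 TPM and Fabp4 was listed at 0, while Retn was listed at 0 in the knockout and at 0.19 TPM in the wild-type library. Adipoq, Lep and Ucp1 were not found by symbol among the genes with values. Of the 5 adipocyte markers found 1 was measured, Cidec, at 5.18 TPM in the knockout and 9.61 TPM in the wild-type library. Of 7 measured stromal and muscle markers 3 were higher by 2-fold or more (42.9%, against 23.1% of all measured genes) and 2 lower (28.6%, against 5.25%). The median log2 ratio of these stromal and muscle markers was 0.02. Of them, Col1a2 stood at 64.4 TPM in the knockout and 3.76 TPM in the wild-type library, and Acta2 at 0.81 TPM in the knockout and 4.06 TPM in the wild-type library. Their part in the value of Angptl4 was not tested.

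The start window of Plin2 was the only one among the members with matches to more than one motif (chr4:86670010-86670309, minus strand, GRCm38.p6, RefSeq). Capitals mark the hexamer on the opposite strand, TGACCT, at position -218, and an E-box, CACGTG, at position -4. The Plin2 gene itself begins at 86670217 in RefSeq, inside this window and upstream of the start site used.
Plin2: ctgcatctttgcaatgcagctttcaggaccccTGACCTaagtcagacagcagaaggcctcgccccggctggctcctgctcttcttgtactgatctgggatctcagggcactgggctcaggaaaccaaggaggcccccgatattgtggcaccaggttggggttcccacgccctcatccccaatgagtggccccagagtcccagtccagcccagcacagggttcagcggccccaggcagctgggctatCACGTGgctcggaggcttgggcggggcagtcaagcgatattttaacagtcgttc
The E-box occurred in 1 of the 31 member windows (3.23%) and in 7.15% of all windows.

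Other genes of the pathway, from 9 lists drawn up beside the members, had a median log2 ratio of 0.21 over 113 measured genes. In the knockout library 13 were higher by 2-fold or more (11.5%) and 6 were lower by as much (5.31%), against the 23.1% and 5.25% of all measured genes given above.

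The 7 other measured ketone body genes had a median log2 ratio of 0.36. The cytosolic dehydrogenase gene Bdh2 was higher, at 2.15 TPM in the knockout and 0.1 TPM in the wild-type library. Bdh2 counted as measured only through the knockout library, from about 19 reads against 1. The approximate counting interval of its ratio ran from 3.4 to 893. The transporter gene Slc16a6 was lower, at 5.27 TPM in the knockout and 12.8 TPM in the wild-type library. Among 17 other mitochondrial genes 1 was past 2-fold on the high side (5.88%, against 23.1% of all measured genes). This was Cpt1b, the muscle form of the carnitine palmitoyltransferase, at 5.64 TPM in the knockout and 1.62 TPM in the wild-type library. With so low a level it added little to the Cpt1a of 115.1 TPM in the knockout and 134.6 TPM in the wild-type library. The group's median of 0.35 was close to that of the members, and its most abundant gene, Hsd17b10, stood at 114.9 TPM in the knockout and 85.95 TPM in the wild-type library.

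The 18 other measured peroxisomal genes had a median log2 ratio of 0.21, with 12 above 0 and 6 below. The bifunctional enzyme gene Hsd17b4 lay just inside the 2-fold threshold on the high side, at 66.5 TPM in the knockout and 33.3 TPM in the wild-type library. Ech1, an isomerase and the most abundant gene of this list, stood at 307.9 TPM in the knockout and 212.5 TPM in the wild-type library.

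The receptors differed in both directions. Ppard, the most abundant PPAR gene here, stood at 234.2 TPM in the knockout and 463.7 TPM in the wild-type library, just under 2-fold lower. Pparg stood at 99.7 TPM in the knockout and 85.8 TPM in the wild-type library, and Ppara, the main receptor for fasting in liver, at 10.99 TPM in the knockout and 6.46 TPM in the wild-type library. Hnf4a, which also drives this pathway in the gut, stood at 334.2 TPM in the knockout and 567.3 TPM in the wild-type library. Of 12 measured genes in this list 1 was lower by 2-fold or more (8.33%, against 5.25% of all measured genes) and none (0) higher. This was Creb3l3, at 3.13 TPM in the knockout and 11.2 TPM in the wild-type library. Of 6 measured further PPAR targets 2 were past 2-fold on the high side (33.3%, against 23.1% of all measured genes). On the low side there was 1 (16.7%, against 5.25%). Fgf21, a hormone of fasting and stress, stood at 5.36 TPM in the knockout library against a listed 0 in the wild-type library. Like Angptl4, it counted as measured only through the knockout library (about 43 reads against 0), and its fold is not defined. The target on the low side was Fabp1, at 0.5 TPM in the knockout and 2.08 TPM in the wild-type library, from about 2 and 10 reads. Its ratio of 0.24 had an approximate counting interval of 0.03 to 1.13, which includes no difference.

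Some genes that supply or build fatty acids had wider differences than any abundant member. Of 13 measured genes of uptake and lipolysis 4 were higher by 2-fold or more in the knockout library (30.8%, against 23.1% of all measured genes). Relative to the median gene 3 were higher by that much (23.1%, against 13.5% of all measured genes) and 4 lower (30.8%, against 10.2%). Those higher included the fatty acid transport protein gene Slc27a1 at 63.3 TPM in the knockout and 10.1 TPM in the wild-type library (6.26-fold higher) and the binding protein gene Fabp2 at the levels given above. The lipase gene Pnpla2, which frees fatty acids from droplets, stood at 124.8 TPM in the knockout and 199.8 TPM in the wild-type library. Of 16 measured genes of fatty acid synthesis 2 were lower by 2-fold or more (12.5%, against 5.25% of all measured genes). One was the desaturase gene Fads2, at 166.7 TPM in the knockout and 530.7 TPM in the wild-type library. The other was the desaturase gene Scd2, at 279.6 TPM in the knockout and 722.0 TPM in the wild-type library. The synthesis list summed to 1096 TPM in the knockout and 2036 TPM in the wild-type library, a ratio of 0.54, with a median log2 ratio of -0.15.

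Of 11 other synthetases and thioesterases measured, 3 were higher by 2-fold or more (27.3%, against 23.1% of all measured genes). Acsbg1 was the highest of them, at 10.9 TPM in the knockout and 0.5 TPM in the wild-type library, and the mitochondrial thioesterase gene Acot9 stood at 63.3 TPM in the knockout and 28.2 TPM in the wild-type library. Acot13, a further mitochondrial thioesterase, stood at 88.1 TPM in the knockout and 45.9 TPM in the wild-type library, and Acot7 at 163.1 TPM in the knockout and 161.3 TPM in the wild-type library. Acot11, the lowest of this list, stood at 26.2 TPM in the knockout and 43.4 TPM in the wild-type library, so thioesterase genes differed in both directions. Pyruvate dehydrogenase genes had a median of 0.39, the same as all measured genes. Of these 13 genes only 1 was past 2-fold, on the high side (7.69%, against 23.1% of all measured genes). This was Dld, a subunit shared with other dehydrogenases, at 157.9 TPM in the knockout and 68.0 TPM in the wild-type library.

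**Figure D3:**
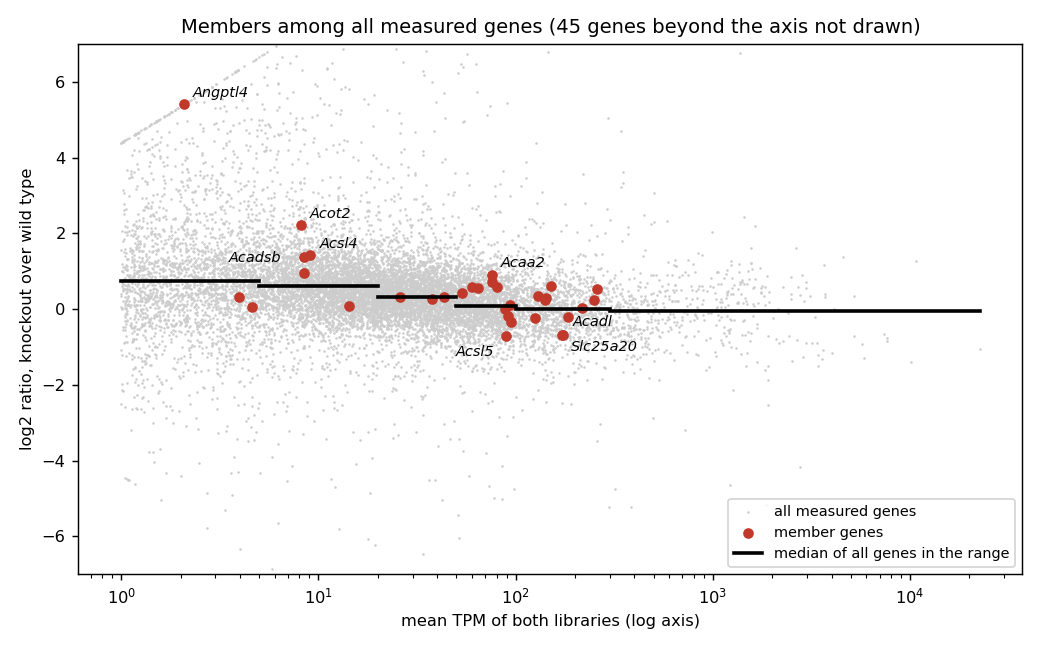
Log2 ratio, knockout over wild type, against mean TPM (log axis) for all measured genes (grey) and the 33 measured members (red); black lines are medians of all genes within ranges of mean TPM, and 45 genes beyond a log2 ratio of 7 in size are not drawn. The medians fall with abundance from 0.74 to -0.06, and most members lie between 20 and 300 TPM and within 2-fold.

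**Figure D4:**
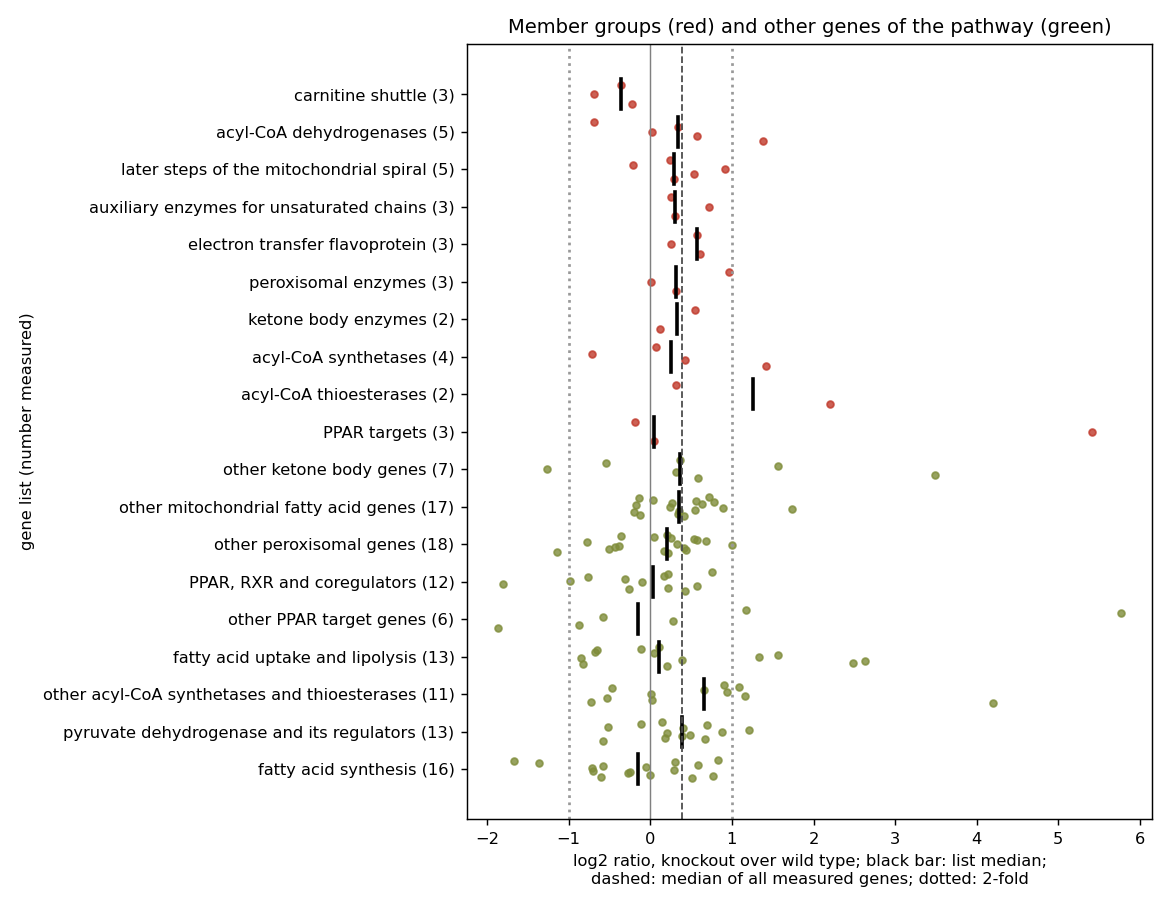
Log2 ratio, knockout over wild type, of each measured gene in the member groups (red) and the other lists of the pathway (green), with list medians as black bars, the median of all measured genes dashed and 2-fold dotted. The carnitine shuttle is the member group with all its genes below 0, and fatty acid synthesis and further PPAR targets are the other lists with a median below 0.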

How the data were processed

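Per the file headers, the authors' table gives FPKM (fragments per kilobase, scaled to the mapped fragments) and TPM, with 2 decimals. Bowtie2, RSEM, DESeq2 and mm10 are named in the submitters' processing notes, with neither versions nor roles. Per the labels' protocols, total RNA went into MGIEasy libraries. Reads of near-identical genes are assigned by estimation, and since TPM values are shares, very abundant genes lower all others.

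From the deposited TPM, log2((knockout + 0.1)/(wild type + 0.1)) was computed for 18067 genes (1 line without values was left out, 0 columns of values were unused). On this scale the difference of low genes is understated; printed folds are TPM divided by TPM. Genes averaging 1 TPM or more counted as measured, and a log2 ratio of at least 1 in size counted as 2-fold, a description with no test. Identifiers matched RefSeq (GRCm38.p6) for 99.3% of genes. Depth was estimated from FPKM of low genes. At the depth chosen, 61.4% of 145 genes in the knockout and 61.3% of 75 in the wild-type library came within 0.15 of whole reads. Chance gives 30% at a fixed depth. Depth and length correction were chosen for the highest share, so 30% is too low a comparison. Over the length corrections tried, the depth ranged from 16250000 to 24000000 in the knockout and from 18500000 to 27250000 in the wild-type library. Approximate reads used the shortest RefSeq-matched GENCODE M21 transcript, and intervals of ratios are exact conditional binomial (Clopper-Pearson) ones at 95%. The ratio and scaling steps were tested on simulated data. Python 3.11.15, pandas 2.3.3, NumPy 2.4.6, SciPy 1.17.1 and Biopython 1.88 were used.

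The members and all lists were chosen with earlier results of these data known. Each member was named. From other lists, the 2 highest, 2 lowest and the most abundant gene and a few fixed regulators could be named, and a part of these is reported; Pnpla2, Acot7, Acot13, Oxct1, Retn, Plin1, Fabp4, Anpep, Acta2 and Olfm4 were added after their values were seen. Some results of genes in these lists are not reported here. Alternatives covered the pseudocount, the unit, the scaling, the floor, the fold and sums without the most abundant gene.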

Additional observations from a re-analysis of the deposited data

How the results depend on the processing

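With 1 library per group no value could be set against replicates. No paired analysis was possible because the groups share no 2 replicate numbers. The median gene set the direction of the members as a list: their median log2 ratio of 0.31 became -0.085 relative to the median gene and -0.086 under trimmed mean scaling, and 0.48 as a mean. The median of the other pathway genes, 0.21, became -0.18 under both scalings. Members lower by 2-fold or more numbered 3 under each of these scalings (Slc25a20, Acadl and Acsl5), against 0 as deposited, and members at least 2-fold higher numbered 3. At a fold of 1.5, 8 members were higher and 3 lower, counts for which no share over all measured genes is given here. With a floor of 20 TPM, added after the data were seen, 0 were higher. The summed colonocyte markers' knockout to wild-type ratio of 1.33 became 0.31 without Car1, also added after the data were seen. The members' summed TPM ratio of 1.09 became 0.83 under trimmed mean scaling. FPKM values gave 5 members at least 2-fold higher, the added one being Acaa1b, again without a share over all measured genes. Pseudocounts of 0.01 and 1 and floors of 0 and 5 TPM kept the members' median between 0.29 and 0.31. Of 63 medians of other lists under alternatives, 13 changed sign, in 7 of 9 lists. Depth limits the lowest members: the approximate counting interval of the ratio ran from 0.91 to 1.72 for Acot1 and from 0.82 to 1.31 for Pdk4.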

Other observations

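Long-chain steps and a group of medium-chain and short-chain steps with electron transfer had different medians with overlapping ranges. Electron transfer serves chains of all lengths, so this is not a sorting by chain length alone. Other mitochondrial members, such as Acadsb, Eci1 and Acat1, were in neither group. The division was made after the values were seen and is given as values alone. The 7 genes of the long-chain steps (Cpt1a, Cpt2, Slc25a20, Acadvl, Acadl, Hadha and Hadhb) had a median log2 ratio of -0.23, from -0.69 to 0.34, with 2 of 7 above 0 and none (0) above the median gene. The 8 genes of medium-chain and short-chain steps and electron transfer (Acadm, Acads, Hadh, Echs1, Acaa2, Etfa, Etfb and Etfdh) had a median of 0.55, from 0.02 to 0.91, with 8 of 8 above 0 and 5 above the median gene. Acadvl at 0.34 and Hadhb at 0.24 lay above Acads at 0.02. Long-chain steps summed to 930.2 TPM in the knockout and 1109 TPM in the wild-type library, and the other group to 1402 TPM in the knockout and 1068 TPM in the wild-type library.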
